A study of Mus musculus with 4 samples.

Results

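Nicotinic acetylcholine receptors are ion channels that open when acetylcholine binds, and each is a ring of subunits made from a family of related genes. In the cochlea, Chrna9 and Chrna10 encode the α9 and α10 subunits of the receptor with which hair cells receive the efferent fibres that come from the brainstem. Calcium that enters through this receptor opens potassium channels and so inhibits the hair cell. Chrna1 and Chrnb1 encode subunits of the receptor of skeletal muscle, and Chrna3, Chrna4, Chrna5, Chrna7, Chrnb2 and Chrnb4 encode subunits of receptors of neurons. These 10 genes were chosen by name, with every non-control probe of the array that carries one of the names. They had 13 probes among the 39429 probes of the array, which name 24489 genes. Of these, 10 probes of 9 genes were bright enough to be tested.

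RNA came from organs of Corti, the sensory epithelium of the cochlea, taken from the basal part of the duct of NMRI mouse embryos at E18.5 (E, embryonic day). Sox2-Tbx2LOF embryos had the genotype Sox2(creERT2);Tbx2(fl/fl), in which a tamoxifen-inducible Cre recombinase sits in the Sox2 gene and can delete the floxed Tbx2 alleles in cells that express Sox2. Controls carried no Cre and are labelled Tbx2(fl/n.d.), where the second Tbx2 allele was not determined. In the cross that the methods give for the mutants, the floxed allele was homozygous in father and mother, and the mother was also homozygous for a fluorescent Cre reporter at the Rosa26 locus. Offspring of this cross without Cre would therefore carry the same Tbx2 and reporter alleles as the mutants. The mutants alone carried Cre in the Sox2 gene. Effects of that allele cannot be told apart from those of Tbx2 loss in this design. Dams of both groups received 4 mg of tamoxifen orally at E16.5, and per the methods also progesterone, so that controls were exposed to the drugs as well. Each RNA sample was a pool of several organs of Corti of the same sex, from which the spiral ligament and the spiral ganglia had been removed. Per the methods the 4 pools of a genotype were independent, and each of 4 dual-colour arrays compared 1 Sox2-Tbx2LOF pool with 1 control pool. Arrays 1 and 2 held female pools and arrays 3 and 4 male pools. The Sox2-Tbx2LOF pool was labelled with Cy3 on arrays 1 and 3 and with Cy5 on arrays 2 and 4.

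All 4 arrays lay on 1 slide and were read in 1 scan, with 70.4% to 75.2% of spots well above background in either genotype and no saturated spot. Log2 ratios correlated across probes with r of 0.43 and 0.46 between arrays with the same dye orientation, and with r between −0.28 and −0.09 between arrays with opposite orientation. A term for the dye was therefore kept in the limma fit, and 3.69% of the 28104 tested probes had an adjusted p under 0.05 for that term. The only Tbx2 probe had log2 ratios of −0.06, −0.24, −0.02 and −0.30 on arrays 1 to 4 (limma adjusted p = 0.313), and whether it lies in the deleted part of the gene is not given in the sources used here. All 9 listed hair cell marker genes (among them Myo7a, Pou4f3 and Atoh1) were above background, as were 18226 of the 24489 genes of the array. Neuron, glia and most skeletal muscle markers passed the same filter, so that this is no check of the tissue label. The array measured bulk RNA, in which fewer cells of a type and less RNA per cell cannot be told apart.

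The 60-base probes decide which transcript of a subunit gene is read, and the last 30 bases of those on which the results turn follow, printed 5′ to 3′ as the array files give them. Capitals mark AATAAA, the usual signal for the end of a messenger RNA. It was found in the probe of Chrna10, in that of Chrnd (the δ subunit of the muscle receptor, which is not among the 10 genes but is described with them), and in 12.6% of all probes of the array.
Chrna9, probe A_51_P381069: agattagaaagaaagaggaggagtgggttg
Chrna10, probe A_55_P1991244: gagcttcgatccatAATAAAtgagtgctcc
Chrna1, probe A_52_P533707: acacttaccaaacatgcagtgttctacatg
Chrna1, probe A_55_P2130987: actcacgaccactttttgcttgagaaatgt
Chrnd, probe A_55_P2110548: ctgtcggggatAATAAAtacatttgggagc

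The array files place the Chrna9 probe at chr5:66368450-66368509 of the mouse genome build mm9, on the forward strand, from base 1727 of the transcript. The Chrna10 probe lay at chr7:109259781-109259840, on the reverse strand, from base 2452 of its transcript. The Chrna1 probes lay at chr2:73404112-73404171 and chr2:73401389-73401448, on the reverse strand, from bases 1486 and 4209 of the same transcript. The Chrnd probe lay at chr1:89096585-89096644 on the forward strand. The files do not state exons, and whether these bases are coding or untranslated is not given in the sources used here.

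Of the 10 subunit genes, 8 had a probe of a RefSeq transcript well above background in this tissue. Chrna7 was measured only by a probe whose record did not match RefSeq. Over the whole array 18226 of 24489 genes and 28104 of 39429 probes were bright enough to be tested, beside 10 of the 13 subunit probes. Being measured is therefore not a trait particular to the subunits. Chrna10, Chrna9, Chrna1, Chrnb1, Chrnb2, Chrnb4, Chrna4, Chrna5 and Chrna7 each had a probe that was well above background on 4 of 4 arrays in both genotypes. The Chrna10 probe had a signal between 63.1 and 314 times its local background over the 8 pools. The same ratio was 16.9 to 72.4 for Chrna9 and 14.6 to 42.3 for Chrnb2. It was 2.00 to 4.27 for Chrna5 and 1.91 to 3.40 for Chrna7. These ratios describe each probe and do not rank the genes, since probes differ in how well they bind.

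The probe of Chrna3, at chr9:54859230-54859289, was well above background on none of the arrays. Its levels were 6.27 to 6.35 in Sox2-Tbx2LOF pools and 6.09 to 6.25 in control pools on the normalized log2 scale. Chrna3 encodes the α3 subunit of the receptors of autonomic ganglia, and its transcript was not measurable here. Further probes of genes that were otherwise measured also failed. The second probe of Chrna7 (A_51_P108228, chr7:70244005-70244064), from base 1604 of the reference transcript, was above background on none of the arrays. The probe of Chrna7 that was measured (A_55_P2137010, chr7:70286594-70286653) was designed on a separate cDNA record that had no match among the RefSeq genes, so that its signal could not be tied to the reference transcript of the gene. The 2 probes were separated by 42529 bases. The second probe of Chrna9 (A_55_P2186332, chr5:66335518-66335577) was designed on a predicted RNA 32872 bases away from the first, was above background on 2 of 4 arrays in either genotype, and had levels of 6.47 to 6.58 in all 8 pools.

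To find out which subunits differed between the genotypes, log2 ratios of Sox2-Tbx2LOF over control were tested over all probes with limma. A probe was called at an adjusted p under 0.05 and a difference of at least 1.5-fold. None of the 10 tested subunit probes was called, against 0.249% of all 28104 tested probes (70 probes). None had an adjusted p under 0.05 without the fold limit either, against 0.982% of all probes, and 3 had an unadjusted limma p under 0.05, against 7.11% of all probes. These were the Chrna10 probe and both Chrna1 probes. The log2 ratio was above 0 for 7 of the 10 probes, against 51.9% of all probes, with a median of 0.06 beside a median of 0.0022 over all tested probes. The ratios ran from −0.32 for Chrna1 to 0.25 for Chrna10. The levels of the 2 genotypes overlapped for all 10 probes, whereas they did not overlap for 2.53% of all probes. The 95% intervals of all 10 ratios lay within 1.5-fold in either direction, as did 99.4% of those of all probes. The median standard error was 0.052 for the subunit probes and 0.051 for all probes, so that the subunits were measured with the usual precision of these arrays.

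**Figure D1:**
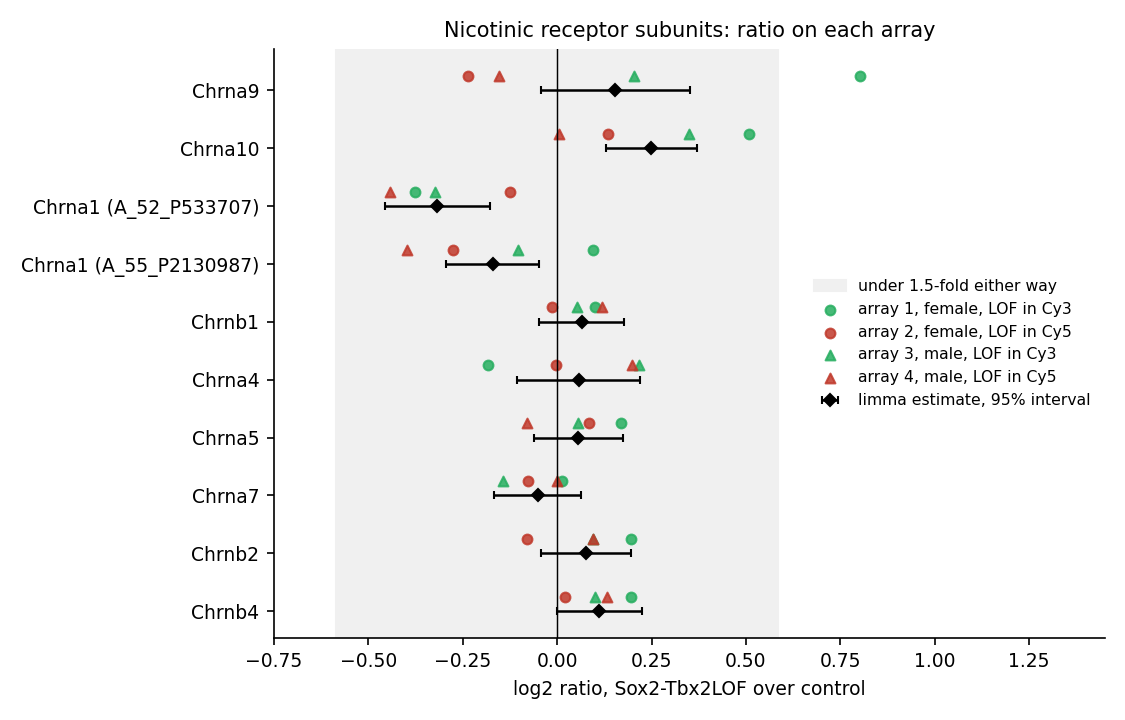
Log2 ratios of Sox2-Tbx2LOF over control (x axis) are plotted for the 10 tested subunit probes (y axis), with 1 coloured point per array (circles female, triangles male; green where the Sox2-Tbx2LOF pool was in Cy3, red where it was in Cy5) and a black diamond with a bar for the limma estimate and its 95% interval. All 10 intervals stay in the grey band of less than 1.5-fold, and the points of Chrna9 spread furthest, from −0.23 to 0.80.

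The hair cell efferent receptor subunits were both measured strongly, and neither passed the test. Chrna10, whose subunit forms no channel by itself and joins with α9, had levels of 12.77, 12.90, 13.24 and 12.86 in the Sox2-Tbx2LOF pools of arrays 1 to 4. Its levels in the control pools were 12.26, 12.77, 12.89 and 12.85. The Sox2-Tbx2LOF pool was the brighter one on 4 of 4 arrays, by 0.51, 0.14, 0.35 and 0.0062 on the log2 scale, yet the lowest Sox2-Tbx2LOF level lay below the highest control level. The limma log2 ratio was 0.25 ± 0.052 (SE, n = 4), a fold of 1.19 with a 95% interval of 1.09 to 1.29 (limma adjusted p = 0.087). Under none of the alternative settings did its limma adjusted p fall under 0.05, the lowest being 0.0526 without array 4. It rose to 0.726 without the dye term and to 0.99992 when the pools of an array were not paired.

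Chrna9, whose subunit can form a channel by itself, had levels of 11.17, 10.80, 11.03 and 10.74 in Sox2-Tbx2LOF pools. The control levels were 10.37, 11.03, 10.82 and 10.89. The Sox2-Tbx2LOF pool was brighter on arrays 1 and 3 (log2 ratios 0.80 and 0.20) and dimmer on arrays 2 and 4 (−0.23 and −0.15), so that the direction changed with the dye. The mean log2 ratio was 0.50 over the arrays with Sox2-Tbx2LOF in Cy3 and −0.19 over those with it in Cy5. The dye difference of −0.70 ± 0.173 (SE) had a limma adjusted p of 0.0628, and that of Chrna10 was −0.36 ± 0.105 (adjusted p = 0.091). With the dye term in the model, the log2 ratio of Chrna9 was 0.15 ± 0.087 (SE, n = 4), a fold of 1.11 with a 95% interval of 0.97 to 1.28 (limma adjusted p = 0.943). The control pool of array 1 was the lowest of the control pools for both genes. Without array 1 the log2 ratio of Chrna9 was 0.0043, and without array 3 it was 0.30.

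**Figure D2:**
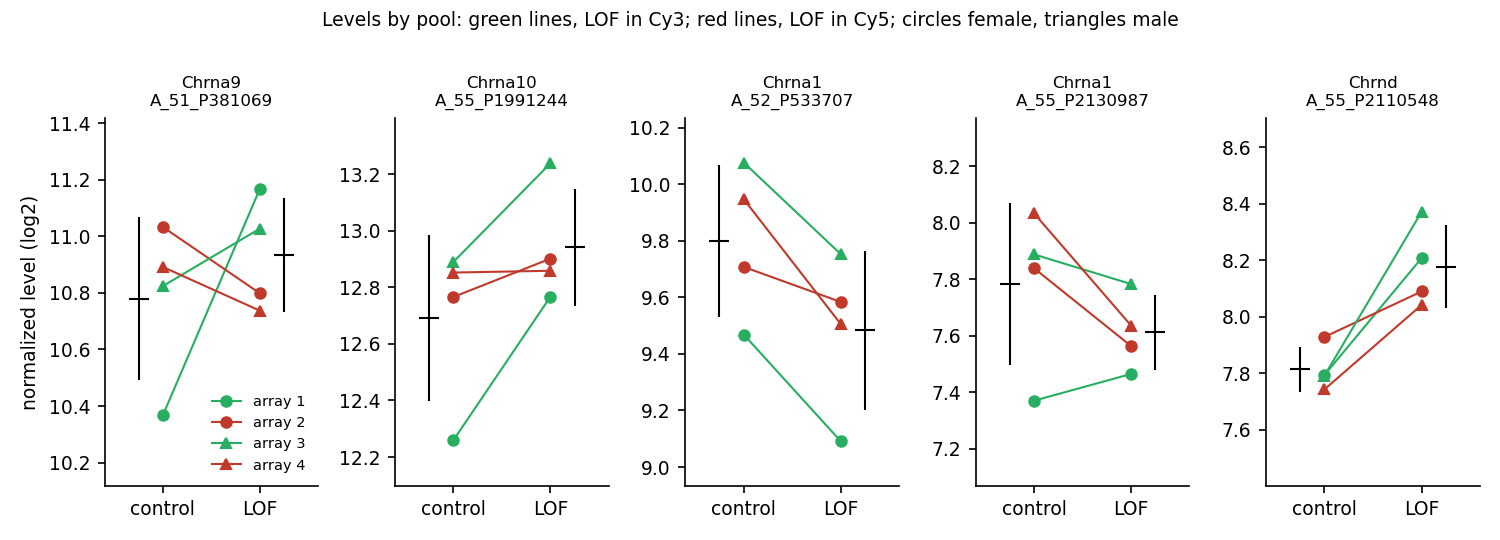
Normalized log2 levels (y axis, 1.3 log2 units high in every panel) of 4 subunit probes and of Chrnd are plotted for control and Sox2-Tbx2LOF pools (x axis), with a line joining the pools of an array and a black bar for the mean ± SD of 4 pools. Lines of Chrna9 run up for green (Cy3) and down for red (Cy5) arrays, all lines of Chrna10 and Chrnd run up, and all lines of Chrna1 probe A_52_P533707 run down.

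The muscle receptor subunits had log2 ratios of different sign. Chrna1 encodes the subunit of the muscle receptor that carries the principal part of the acetylcholine binding site. Its probe A_52_P533707 had levels of 9.09, 9.58, 9.75 and 9.51 in Sox2-Tbx2LOF pools of arrays 1 to 4 and of 9.47, 9.71, 10.08 and 9.95 in control pools. The Sox2-Tbx2LOF pool was the dimmer one on 4 of 4 arrays, with log2 ratios of −0.38, −0.12, −0.32 and −0.44, while the ranges of the genotypes overlapped. The limma log2 ratio was −0.32 ± 0.060 (SE, n = 4), a fold of 0.803 with a 95% interval of 0.730 to 0.883 (limma adjusted p = 0.0591). The adjusted p fell to 0.00286 without array 2 and to 0.0465 without background subtraction, and otherwise lay above 0.05 (up to 0.99992 when the pools of an array were not paired). The second Chrna1 probe had log2 ratios of 0.09, −0.28, −0.10 and −0.40, with a limma ratio of −0.17 ± 0.054 (SE, adjusted p = 0.347), so that it was lower on 3 of 4 arrays.

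Chrnb1, the β1 subunit of the same receptor, had log2 ratios of 0.10, −0.01, 0.05 and 0.12 and a limma ratio of 0.07 ± 0.049 (SE, adjusted p = 0.99976). Its probe started at base 1241 of the transcript and spanned 569 bases of chr11:69598674-69599242 on mm9, which for a 60-base probe means that it crosses at least 1 splice junction. Chrnd rose in Sox2-Tbx2LOF pools. Its levels were 8.21, 8.09, 8.37 and 8.04 in these pools against 7.79, 7.93, 7.79 and 7.74 in control pools, so that the genotypes did not overlap. The limma log2 ratio was 0.36 ± 0.053 (SE, n = 4; adjusted p = 0.0166), a fold of 1.29, which is under the 1.5-fold needed for a call. This adjusted p rose to 0.0878 without array 3 and to 0.0684 when the pools of an array were not paired. Of the remaining muscle subunits, Chrng (the fetal γ subunit) had a limma ratio of −0.05 and Chrne (the adult ε subunit) was not above background on any array.

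Markers of skeletal muscle were measured in both genotypes, at levels that differed widely between genes. Of 11 listed genes, 9 were above background, while Ckm and Myod1 were not on any array. Their mean normalized level was 7.76 to 7.90 over Sox2-Tbx2LOF pools and 7.77 to 7.87 over control pools. The brighter Myl1 probe had mean levels of 10.67 in Sox2-Tbx2LOF and 10.39 in control pools, and Tnnc2 had 9.58 and 9.28. Acta1 had 6.99 and 7.18. In the same order, Chrna1 probe A_52_P533707 had 9.48 and 9.80, and Chrnd had 8.18 and 7.81. None of the 13 tested muscle marker probes had a limma adjusted p under 0.05, and 4 had an unadjusted p under 0.05, against 7.11% of all tested probes. The largest ratios were those of Tnnc2 (0.30), Myl1 (0.28 for its brighter probe) and Acta1 (−0.19), so that these markers did not share a direction. Their part in the values of Chrna1 and Chrnd was not tested.

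The subunits of neuronal receptors lay close to equal levels in both genotypes. Chrnb2, the most common β subunit of brain receptors, had log2 ratios of 0.20, −0.08, 0.10 and 0.09 on arrays 1 to 4, and Chrna4, its usual partner, had −0.18, −0.0029, 0.22 and 0.20. Their limma ratios were 0.08 ± 0.052 and 0.06 ± 0.071 (SE), each with an adjusted p of 0.99976. The probes lay at chr3:89557860-89557919 and chr2:180757309-180757368. The sign of the Chrna4 ratio split by sex and not by dye.

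Chrna5, Chrna3 and Chrnb4 sit next to each other on chromosome 9 in the RefSeq order of genes, with Psma4 before and Ube2q2 after them, apart from a pseudogene, and their probes span 21736 bases. Chrnb4 had log2 ratios of 0.19, 0.02, 0.10 and 0.13, above 0 on 4 of 4 arrays, with a limma ratio of 0.11 ± 0.049 (SE, limma adjusted p = 0.710). Its levels were 8.47 to 8.68 in Sox2-Tbx2LOF pools and 8.34 to 8.58 in control pools and thus overlapped. Chrna5, an accessory subunit that binds no acetylcholine at the usual sites, had ratios of 0.17, 0.08, 0.05 and −0.08 and a limma ratio of 0.06 ± 0.052 (adjusted p = 0.99976). Chrna7, which forms receptors by itself, had a limma ratio of −0.05 ± 0.051 (adjusted p = 0.99976). Ratios of the same sign on all 4 arrays were seen for 3 of the 10 tested subunit probes (Chrna10, Chrna1 and Chrnb4), and for 9.06% of all tested probes.

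Of the neuron markers, all 8 listed genes (among them Tubb3, Nefl and Snap25) were above background, although the spiral ganglia had been removed. Their mean normalized level was 12.92 to 12.98 in Sox2-Tbx2LOF pools and 12.90 to 12.96 in control pools. Their median log2 ratio was 0.03 over genes, with the brightest probe standing for each gene, and none had an adjusted p under 0.05. The glia markers were above background for 6 of 6 genes with a median ratio of 0.01. How much of the neuronal subunit signal came from nerve fibres or glia was not tested.

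Other nicotinic subunits, muscarinic receptors and the genes that supply or modulate acetylcholine signalling were read from the same fit. Of 6 other nicotinic subunit genes 5 were tested, and Chrnd alone had an adjusted p under 0.05. Chrna6, Chrnb3 and Chrna2 had limma ratios of 0.12, 0.07 and 0.06. Over these 5 genes the median was 0.07. Muscarinic receptors, which signal through G proteins, were measured for Chrm4 and Chrm1 of 5 genes. Chrm4 had log2 ratios of 0.16, −0.66, −0.58 and −0.64 on arrays 1 to 4 and a limma ratio of −0.43 ± 0.100 (SE, adjusted p = 0.125), and Chrm1 had a limma ratio of −0.04. The Sox2-Tbx2LOF pool was thus dimmer for Chrm4 on 3 of 4 arrays, and array 1 went the other way.

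Genes for the assembly and clustering of receptors and for their modulation, such as Rapsn, Agrn, Musk, Ric3 and Lynx1, were measured for 16 of 16 genes. Their median ratio was 0.02 and their probes lay between −0.06 and 0.15, the latter for Lypd1, and none of 22 tested probes had an unadjusted p under 0.05. Genes of acetylcholine synthesis, transport and breakdown were measured for 7 of 7 genes, with a median of −0.0063. The choline transporter gene Slc5a7 had the largest difference at −0.19, followed by Colq at 0.08 and Ache at −0.06. Of 13 genes for calcium and potassium channels and pumps that act with the efferent receptor 11 were tested, with a median of 0.02. Kcnn2, the potassium channel SK2 that follows the receptor in hair cells, had ratios of −0.02, −0.24, 0.24 and −0.65 and a limma ratio of −0.17 ± 0.075 (SE, adjusted p = 0.739). Kcnmb2, an auxiliary subunit of BK channels, had limma ratios of 0.16 and 0.23 from its 2 probes (adjusted p = 0.304 and 0.115). Atp2a3, a calcium pump, was at −0.14. None of the genes of these 3 lists had an adjusted p under 0.05.

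Markers of hair cell types were set beside the efferent receptor. Of the inner hair cell markers, 4 of 8 tested probes were called lower, against 0.128% of all probes, and a further probe had an adjusted p under 0.05. The limma log2 ratios were −1.57 and −1.26 for the 2 tested probes of Fgf8, −1.17 for Cabp2 and −0.66 for the brighter probe of Slc17a8. The dimmer Slc17a8 probe had a ratio of only −0.12 (limma adjusted p = 0.618). Tbx2 had −0.15 (adjusted p = 0.313) and Calb2 0.0056 (adjusted p = 0.99976). Otof had a ratio of −0.40 (limma adjusted p = 0.01), which was no longer under the threshold when the pools of an array were not paired (adjusted p = 0.214). The list was made with results of these samples known, so that its counts are not independent evidence. Of 6 outer hair cell marker genes 5 were tested, with a median of 0.08 and none with an adjusted p under 0.05. The highest ratio was that of Ocm at 0.26 (adjusted p = 0.0998), and Slc26a5, the motor protein gene of outer hair cells, was not above background on any array. Of markers of all hair cells, 9 of 9 genes were tested with a median of −0.01, the lowest being Tmc1 at −0.26 and Gfi1 at −0.24 and the highest Barhl1 at 0.12. The ratios of Chrna10 and Chrna9 (0.25 and 0.15) lay within the range of the outer hair cell markers, −0.10 to 0.26. They also lay within that of the skeletal muscle markers, −0.19 to 0.30. Both were above the range of markers of all hair cells, −0.26 to 0.12, and of inner hair cell markers, −1.57 to 0.0056. The range of the glia markers, −0.05 to 0.18, held Chrna9 but not Chrna10. Whether Chrna10 and Chrna9 share a source with any of these markers was not tested.

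**Figure D3:**
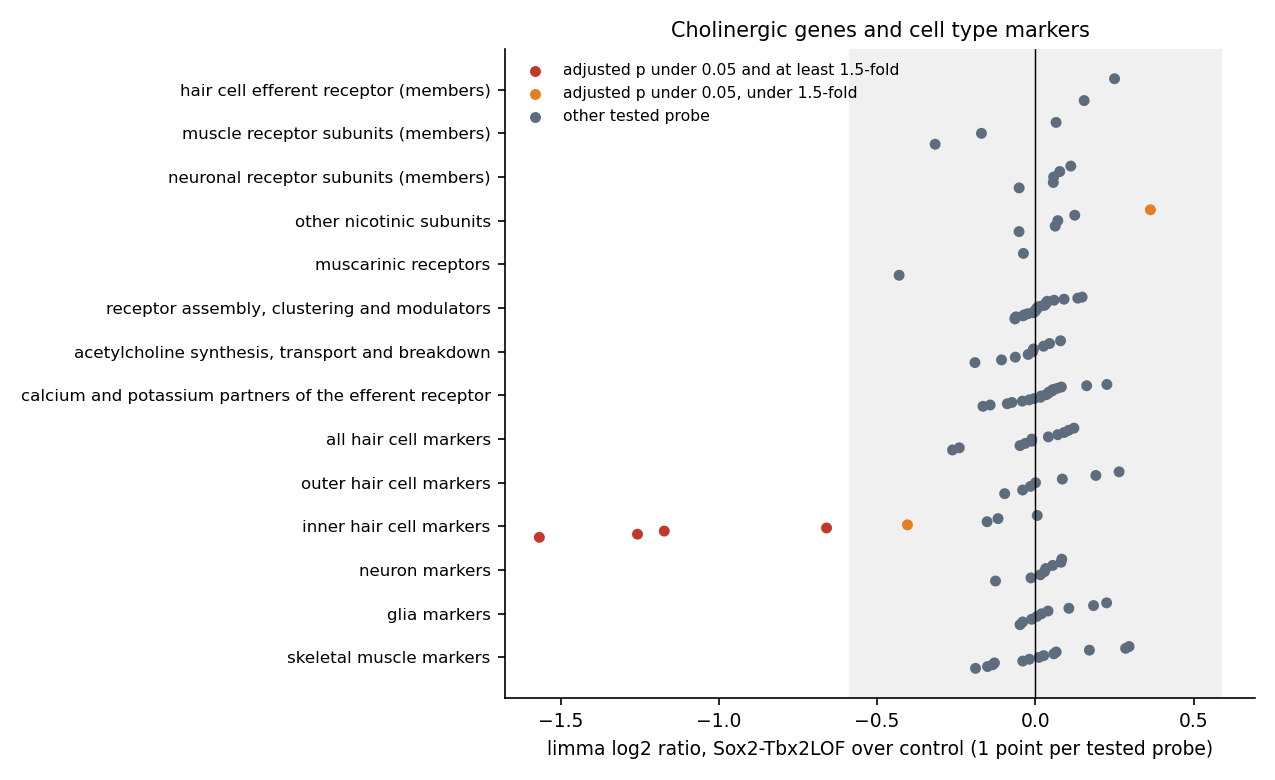
Limma log2 ratios of Sox2-Tbx2LOF over control (x axis) are plotted with 1 point per tested probe for 14 gene lists (y axis), where red marks called probes, orange an adjusted p under 0.05 with less than 1.5-fold, and the grey band less than 1.5-fold. All subunit probes of the first 3 lists are in the band without a call, Chrnd is the orange point at 0.36, and the called points are those of inner hair cell markers.

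Female and male pools were compared with a term for sex. No probe of the array had an adjusted p under 0.05 for it with limma, and 2.01% had an unadjusted p under 0.05. Among the subunits the only such probe was that of Chrna4, with a mean log2 ratio of −0.09 in females and 0.21 in males. Chrna10 had mean ratios of 0.32 in females and 0.18 in males. Chrna1 probe A_52_P533707 had −0.25 in females and −0.38 in males. Each sex had 2 arrays, and the sex term left 1 residual degree of freedom per probe.

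The genes whose levels followed Chrna9 most closely over the 8 pools, after the mean of each dye was taken off, were Zcchc12 (Pearson r = 0.983) and Ccdc138 (r = 0.971), next to an unnamed transcript (r = 0.964). For Chrna10 they were Gm10804 (r = 0.999), Syt6 (r = 0.990) and Myom1 (r = 0.986). The 8 pools share arrays in pairs and all were hybridised together, and these were the highest values among 28104 probes, so that they are descriptions only. Limma ratios of these genes were small, such as 0.09 for Zcchc12 and 0.08 for Syt6.

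Promoter sequence was available from RefSeq for all 10 subunit genes, as 11 windows of 300 bases around the start sites on GRCm38.p6. The T-box half-site GGTGTGA, the core to which T-box factors such as TBX2 can bind, was found on either strand in 1 of the 11 windows (that of Chrna7) and in 3.98% of all 32851 windows. The E-box CANNTG, which is bound by factors such as ATOH1, was found in 10 of 11 windows and in 72.3% of all. A match describes letters and not a bound site, and overlap between the motifs was not considered.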

How the data were processed

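Deposited scanner files hold the mean intensity of each spot and the median intensity of its surroundings in both channels, not normalized, from Agilent Feature Extraction (version 10.7.3.1, per the submitters' processing notes). The same files hold log10 ratios of red over green that the authors' software had corrected for background and dye. The deposited series matrix holds signed fold (ratio) values made by the authors with unstated steps. It gave a log2 median of 0 on every array. Its direction was settled by a correlation of 0.937 to 0.953, across tested probes, with the log2 ratios normalized as described below.

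Intensity values were corrected with normexp (offset 50) and normalized within arrays by loess in limma 3.58.1 under R 4.3.3. Control spots had weight 0 in loess and outlier spots were dropped (3.23% to 3.56% of spots). The 4 spots of a probe were averaged. Levels were scaled between arrays by Aquantile. Probes were tested where more than 0.5 of their spots were well above background on at least 3 of 4 arrays in either genotype (28104 probes). Ratios were turned to Sox2-Tbx2LOF over control and fitted with lmFit and eBayes with a dye term, with Benjamini-Hochberg adjustment over all tested probes. The study's methods used Significance Analysis of Microarrays (SAM) on unpaired groups, which was run as an alternative on all 70 regroupings. The fit was tested on simulated data.

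Median signals were 315 to 412 per channel, beside backgrounds of 31 to 33 (green) and 68 to 80 (red). The number of arrays limits the precision. Symbols followed RefSeq by accession, which matched 12 of the 13 subunit probes. The subunit genes and the lists were chosen with earlier results of these data known. Every probe of a subunit gene is named, and of each other list the genes with an adjusted p under 0.05 or else up to 3 with the largest ratios. Chrna2, Chrna6, Chrnb3, Chrng, Chrne, Ckm, Myod1, Slc26a5 and Calb2, and examples given after "such as" or "among them", were named after their values were seen.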

Additional observations from a re-analysis of the deposited data

Results flagged for a closer look

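The log2 ratio of Chrna4 differed between the sexes, with every female array below 0 and every male array above 0. The difference, female minus male, was −0.30 ± 0.111 (SE, limma adjusted p = 0.99981), so that it failed the adjustment over all probes, although its unadjusted p lay under 0.05. Within control pools, 1 pool stood apart from the other 3 in level for each of 2 probes. For Chrnb1 the control pool of array 1 (9.19, against 9.36 to 9.39) had a gap of 0.868 of the whole range. For Chrna5 the control pool of array 1 (7.21, against 7.33 to 7.34) had a gap of 0.933 of the whole range. Chance alone marks about 1 in 20 groups by such a gap, and 26 groups of pools and 19 groups of ratios were examined for it. This rate does not hold for the split of Chrna4 by sex, which was flagged by the signs of the ratios.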

How the results depend on the processing

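No subunit probe was called under any alternative that was run, SAM included. Over all probes the count of calls was 70. It was 124 with the log ratio of the scanner software, 1 with the series matrix, 276 without a minimum fold, and 66 to 106 when 1 array was left out. The count of 106 came without array 1 and shared 67 probes with the reported 70. Of the listed genes 4 probes were called, and 0 with the series matrix. The pools of an array are paired by the ratio. Without this replicate block (unpaired limma on levels) 57 probes were called, all shared with the 70, and SAM called 60. The Chrna4 ratio reversed to −0.043 without array 3, within a range of −0.043 to 0.16 when 1 array was left out. The adjusted p of Otof rose to 0.124 without the dye term and to 0.214 without the replicate block, and that of Chrnd to 0.159 and 0.0684. With the series matrix the adjusted p of Fgf8, Cabp2, Slc17a8, Otof and Chrnd rose above 0.05. The cause of these changes was not tested. A block for slide or scan was not run because there was only 1 of each. Probes near background (Chrna5, Chrna7 and the second Chrna1 probe) are limited by signal, since an offset draws their ratios towards 0. The second Chrna1 probe had a signal of 2.16 to 6.18 times its background. Its log2 ratio was −0.17 as reported and −0.22 with an offset of 0 (limma adjusted p = 0.262). With the log ratio of the scanner software it was −0.26 (limma adjusted p = 0.226).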
